A study of Mus musculus with 6 samples.

Results

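The 8 genes described here code for secreted proteins known from articular cartilage or from the resting zone of the growth plate, namely *Prg4*, *Cilp*, *Cilp2*, *Ucma*, *Cytl1*, *Scrg1*, *Tnc* and *Clu*. They were chosen by symbol, and all 8 of 8 were found among the 47729 genes of the deposited table. All 8 passed the filter on low counts, as did 19308 genes in total. RNA was sequenced from proximal tibial epiphyses of mice aged 14 days, from 3 Control mice, the random-bred ICR line, and from 3 mice of LS1, a Longshanks line bred for long tibiae relative to body mass. All mice belonged to generation 13, came from different families and had no treatment per the labels, and each library pooled both epiphyses of 1 mouse. LS1 is 1 of the selected lines, so a difference between LS1 and Control can also be one of line ancestry, which cannot be told apart from selection with 1 line per group.

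The dissected tissue held articular cartilage, growth plate, secondary ossification centre and the bone and marrow below, and the RNA was polyadenylated RNA of all of them together. These libraries place no transcript in a zone of cartilage. Fewer cells of a type and less RNA per cell cannot be told apart in such bulk samples. The defining cartilage genes were present in all libraries, with 17 of 17 core cartilage genes past the filter.

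Cartilage is a tissue of scattered chondrocytes in a secreted matrix. At the joint surface, superficial chondrocytes secrete lubricating and protective proteins, while in the growth plate slowly cycling resting chondrocytes feed the columns that lengthen the bone. The proteins described here act outside the cell, as a lubricant, as inhibitors of growth factors, as mineral-binding or cytokine-like products of young chondrocytes, or as adhesion modulators and chaperones.

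Values are normalized counts, that is, read counts divided by the size factor of the library, and fold changes are LS1 against Control on log2(value + 1) from limma. The Benjamini-Hochberg adjustment covered all 19308 genes tested, and a call is an adjusted p-value under 0.05. The Control libraries held 68803249 to 76581954 recovered reads and the LS1 libraries 82227711 to 88745366. Along the first principal component of all tested genes, with 35.1% of the variance, the Control libraries lay between -41.5 and -22.1. LS1 replicates 1 and 2 lay at 43.7 and 50.1, and LS1 replicate 3 at -4.29, apart from the other two. Results that rest on LS1 replicate 3 are therefore also given without it.

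With limma, 0 of the 8 genes were called between LS1 and Control, against 14 of 19308 genes in all (0.0725%). EdgeR and DESeq2 on the recovered reads also called 0 of the 8, where they called 7 (0.0363%) and 456 (2.36%) of all genes. At an unadjusted p under 0.05 from limma, 1 gene was higher in LS1 (*Scrg1*) and 1 was lower (*Cytl1*). Among all genes 7.08% were higher and 5.86% lower by the same limit. The groups did not overlap for 1 of the 8 genes, *Scrg1*, which was higher in LS1, and for 0 in the other direction. Over all genes the groups did not overlap in 10.3% with LS1 higher and in 8.94% with LS1 lower. The median log2 fold change of the 8 genes was 0.15, with 5 above 0 and 3 below, beside a median of 0.0054 over all genes tested. The plot of normalized counts shows each gene in each library.

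**Figure D1:**
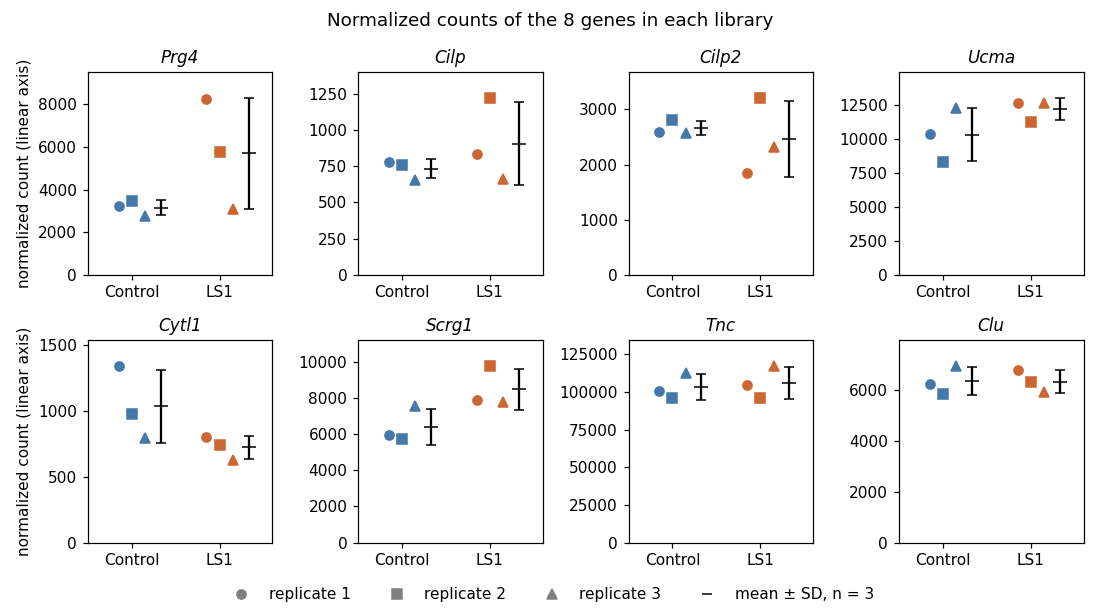
Normalized counts (linear vertical axis from 0) of the 8 genes in the 3 Control and 3 LS1 libraries, with replicates as separate marker shapes and the mean ± SD (n = 3) as black bars. *Prg4* was higher in LS1 replicates 1 and 2 (8247 and 5749.7) than in every Control library, but not in LS1 replicate 3 (3072), and only *Scrg1* had groups that did not overlap.

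*Prg4* (ENSMUSG00000006014) codes for lubricin, the mucin-like boundary lubricant secreted by superficial chondrocytes and synovial cells. It lies on chromosome 1 of GRCm38, minus strand, from 150449412 to 150466165. Its coding sequence of 3663 bases holds a long tract of tandem repeats in its middle. The most frequent word of 21 bases in reading frame occurred 20 times without a mismatch, between coding positions 1039 and 2325. A window of 189 bases is shown because it holds 6 of these copies, which are in capitals, and the repeat bears on how reads of this gene can be placed. The window is coding sequence at chr1:150455244-150455432 of GRCm38, given along the minus strand, at coding positions 1489 to 1677.

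Prg4 repeat window: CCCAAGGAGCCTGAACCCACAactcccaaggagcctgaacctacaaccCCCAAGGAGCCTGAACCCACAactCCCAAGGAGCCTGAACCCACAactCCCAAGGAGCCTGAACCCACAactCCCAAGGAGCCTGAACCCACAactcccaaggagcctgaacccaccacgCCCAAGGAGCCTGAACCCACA

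Of the stretches of 35 bases in the *Prg4* coding sequence, the shorter read length, 28.8% occurred more than once inside it, against 0% in each of the other 7 genes. Such a read has several places within *Prg4* and none in another gene on the same strand. At its 3′ end, 204 exonic bases of *Prg4*, 4.77% of its exon length, are also exonic in *Tpr* on the opposite strand. The sources used here do not state whether counting used strand, so reads in those bases cannot be assigned to one of the genes. *Tpr*, a nuclear pore protein gene, had counts from 15019 to 18892 and a log2 fold change of -0.10 (limma adjusted p = 0.796).

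*Prg4* had normalized counts of 3229, 3472 and 2755 in Control replicates 1 to 3 and of 8247, 5749.7 and 3072 in LS1 replicates 1 to 3. LS1 replicates 1 and 2 lay above all Control libraries, and LS1 replicate 3 lay among them. The Control mean was 3152 ± 365 (SD, n = 3) and the LS1 mean 5689.9 ± 2588 (SD, n = 3). The log2 fold change was 0.75 (SE 0.32, 95% confidence interval -0.0065 to 1.50), with an adjusted p of 0.390 from limma. This is a fold of 1.68, with an interval from 0.996 to 2.82. An exact two-sided permutation test of the counts gave p = 0.3, where 0.1 is the smallest p that 3 against 3 allows. EdgeR and DESeq2 gave log2 fold changes of 0.84 and 0.84, with adjusted p of 0.282 and 0.0706.

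The value of *Prg4* depended on which LS1 library was in the fit. Without LS1 replicate 1 its log2 fold change was 0.42, with an adjusted p of 0.557 from limma. Without LS1 replicate 3 the log2 fold change of *Prg4* was 1.13, with an adjusted p of 0.00724 from limma, and *Prg4* was then the only 1 of the 8 genes called. In that comparison of 5 libraries, 226 genes were called higher in LS1, 1.17% of those tested, against 2 with all libraries. LS1 replicate 3 was set apart from these same data and had the lowest *Prg4* count in LS1. Leaving it out raises the difference and narrows the LS1 spread by construction. The limma adjusted p of 0.00724 therefore gives no support of its own. The coefficient of variation of *Prg4* was 11.6% in Control and 45.5% in LS1, where the highest library had 2.68 times the count of the lowest. The interferon-stimulated genes were high in the same libraries. The median over their 10 genes lay 1.54 and 2.87 above the Control mean on the log2 scale in LS1 replicates 1 and 2, and -0.022 from it in LS1 replicate 3. *Prg4* lay 1.39, 0.87 and -0.030 from its Control mean in the same order. The part of this in the *Prg4* values was not tested.

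*Cilp* (chromosome 9, 65265180 to 65280605, plus strand) and *Cilp2* (chromosome 8, 69880369 to 69887687, minus strand) code for the cartilage intermediate layer proteins, matrix glycoproteins. CILP is known to bind TGF-β1 and to dampen TGF-β and IGF1 signalling. *Cilp2* is its paralog, so reads could in principle be shared between them. The longest stretch that their coding sequences of 3750 and 3486 bases had in common without a mismatch was 14 bases, far under the read length. That stretch is given below because it bounds what a read could share, and it lies at chr9:65279641-65279654 in *Cilp* and at chr8:69881344-69881357 in *Cilp2* (GRCm38, each along the strand of the gene).

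Cilp and Cilp2 shared stretch: tggagttcaagtgc

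All stretches of 35 bases in the transcripts of *Cilp* and *Cilp2* were found in no other gene, so their counts can be read as separate. *Cilp* had normalized counts of 781, 759 and 657 in Control and of 835, 1218 and 659 in LS1. LS1 replicates 1 and 2 lay above all Control libraries, while LS1 replicate 3 lay between Control replicates 3 and 2. Its means were 732 ± 66.2 (SD, n = 3) and 904 ± 286 (SD, n = 3), a log2 fold change of 0.26 (SE 0.23, limma adjusted p = 0.660). Its log2 fold change was 0.47 without LS1 replicate 3 (limma adjusted p = 0.318) and 0.023 without LS1 replicate 2 (limma adjusted p = 0.979).

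*Cilp2* had normalized counts of 2592, 2803 and 2575 in Control and of 1848, 3202 and 2327 in LS1. The Control libraries lay close together, and the LS1 libraries lay on both sides of them. The means were 2657 ± 127 (SD, n = 3) and 2459 ± 686 (SD, n = 3), a log2 fold change of -0.15 (SE 0.19, 95% confidence interval -0.56 to 0.27, limma adjusted p = 0.779). *Cilp* and *Cilp2* thus both varied more among LS1 than among Control libraries, with coefficients of variation of 31.6% and 27.9% in LS1 against 9.04% and 4.77% in Control. This difference in spread was not tested.

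Per kb of exon, *Cilp2* was above *Cilp* in each library. The ratio of *Cilp2* to *Cilp* was 3.27, 3.64 and 3.86 in Control and 2.18, 2.59 and 3.48 in LS1. It was lower than in every Control library in LS1 replicates 1 and 2, and within the Control range in LS1 replicate 3 (exact two-sided permutation p = 0.2).

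*Ucma*, *Cytl1* and *Scrg1* are small secreted products of young chondrocytes, with coding sequences of 414, 417 and 294 bases. UCMA, also named Gla-rich protein, carries glutamates that are carboxylated with vitamin K as cofactor. *Ucma* (chromosome 2, 4976122 to 4985748, plus strand) had normalized counts of 10343, 8331 and 12276 in Control and of 12634, 11237 and 12654 in LS1. LS1 replicates 1 and 3 lay above all Control libraries, and LS1 replicate 2 lay under Control replicate 3. The means were 10317 ± 1973 (SD, n = 3) and 12175 ± 812 (SD, n = 3), with a log2 fold change of 0.25 (SE 0.15, 95% confidence interval -0.084 to 0.59, limma adjusted p = 0.510). It was 0.11 without Control replicate 2 and 0.39 without Control replicate 3.

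CYTL1 is a cytokine-like protein that chondrocytes secrete and that promotes chondrogenesis. *Cytl1* (chromosome 5, 37735519 to 37739820, plus strand) had normalized counts of 1342, 977 and 794 in Control and of 805, 741 and 627 in LS1. LS1 replicates 2 and 3 lay under all Control libraries, and LS1 replicate 1 lay just above Control replicate 3. The means were 1038 ± 279 (SD, n = 3) and 724 ± 90.1 (SD, n = 3). The log2 fold change of *Cytl1* was -0.49 (SE 0.22, 95% confidence interval -0.97 to -0.015), with an unadjusted p of 0.0442 and an adjusted p of 0.372 from limma. This is a fold of 0.711, and the exact two-sided permutation p was 0.2. Control replicate 1 was the highest library, and leaving out each library in turn gave log2 fold changes from -0.67 to -0.29.

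SCRG1, stimulator of chondrogenesis 1, is a small secreted protein that rises as mesenchymal cells become chondrocytes. *Scrg1* (chromosome 8, 57455923 to 57477585, plus strand) had normalized counts of 5948, 5752 and 7568 in Control and of 7873, 9765 and 7792 in LS1. Each LS1 library lay above each Control library, by a narrow margin between Control replicate 3 and LS1 replicate 3. The means were 6422 ± 997 (SD, n = 3) and 8477 ± 1116 (SD, n = 3). The log2 fold change of *Scrg1* was 0.40 (SE 0.15, 95% confidence interval 0.070 to 0.74), with an unadjusted p of 0.0219 and an adjusted p of 0.311 from limma. The fold was 1.32, and the exact two-sided permutation p was 0.1, the smallest that the design allows. Over the fits with 1 library fewer, *Scrg1* had log2 fold changes from 0.30 to 0.53 with adjusted p from 0.207 to 0.645 from limma.

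*Tnc* codes for tenascin-C, a large matrix glycoprotein that modulates cell adhesion and is made in articular cartilage, perichondrium and bone-forming tissue. *Tnc* (chromosome 4, 63959785 to 64047015, minus strand) had normalized counts of 100822, 95694 and 112659 in Control and of 104509, 96207 and 117040.2 in LS1. Both groups covered nearly the same range. The means were 103058 ± 8701 (SD, n = 3) and 105918 ± 10488 (SD, n = 3), with a log2 fold change of 0.038 (SE 0.14, 95% confidence interval -0.26 to 0.34, limma adjusted p = 0.932). The fold was 1.03, with an interval from 0.834 to 1.26. Of its exonic bases 2.26% (176 bases) are also exonic in *8030451A03Rik* on the opposite strand, which had only 162 to 257 normalized counts.

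*Clu* codes for clusterin, an extracellular chaperone that superficial chondrocytes and many other cells secrete. *Clu* (chromosome 14, 65968483 to 65981547, plus strand) had normalized counts of 6263, 5868 and 6956 in Control and of 6799, 6326 and 5925 in LS1. All LS1 libraries of *Clu* lay within the Control range. The means were 6362 ± 551 (SD, n = 3) and 6349.9 ± 438 (SD, n = 3), with a log2 fold change of -0.0015 (SE 0.13, 95% confidence interval -0.28 to 0.28, limma adjusted p = 0.999). As a fold this interval of *Clu* ran from 0.821 to 1.21, which bounds the difference but does not show that the groups were equal.

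**Figure D2:**
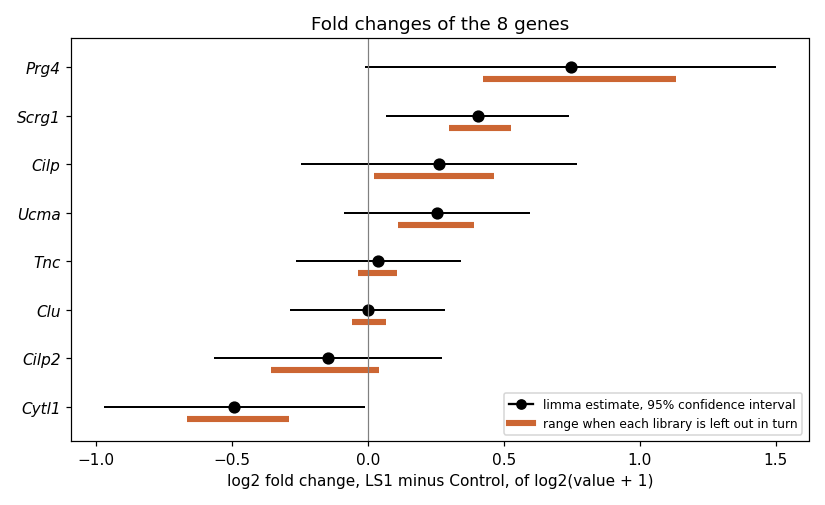
Log2 fold change of each gene, LS1 minus Control (horizontal axis, log2(value + 1)), as the limma estimate (black point) with its 95% confidence interval (black line), and the range of the estimate when each of the 6 libraries was left out in turn (orange bar). *Prg4* had both the largest estimate (0.75) and the widest interval (-0.0065 to 1.50), and the intervals of *Scrg1* and *Cytl1* ended at 0.070 and -0.015.

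Levels of different genes were compared as normalized counts per kb of exon. *Tnc* ranged from 12313 to 15059 over the 6 libraries, *Ucma* from 9424 to 14314 and *Scrg1* from 8216 to 13950.0. These 3 genes could not be ordered, since their ranges overlapped, and they stood at the percentiles 99.0, 99.0 and 98.7 of the genes tested. *Clu* followed with 1707 to 2024 per kb (percentile 88.9), apart from the 3 above it.

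*Prg4* ranged from 644 to 1927 per kb (percentile 79.6), *Cytl1* from 594 to 1271 (75.2) and *Cilp2* from 428 to 742 (67.3). The ranges of *Prg4*, *Cytl1* and *Cilp2* overlapped each other, and that of *Prg4* also reached into the range of *Clu*. *Cilp* was the lowest, at 155 to 287 per kb (percentile 42.7), and its range met no other. The ratio of *Tnc* to *Prg4* per kb was 17.2, 15.2 and 22.5 in Control and 6.98, 9.21 and 20.98 in LS1. It was lower than in every Control library in LS1 replicates 1 and 2 only (exact two-sided permutation p = 0.3). Whether reads with several places in the *Prg4* repeats were counted was not checked, so the level of *Prg4* per kb may be understated against the other genes.

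**Figure D3:**
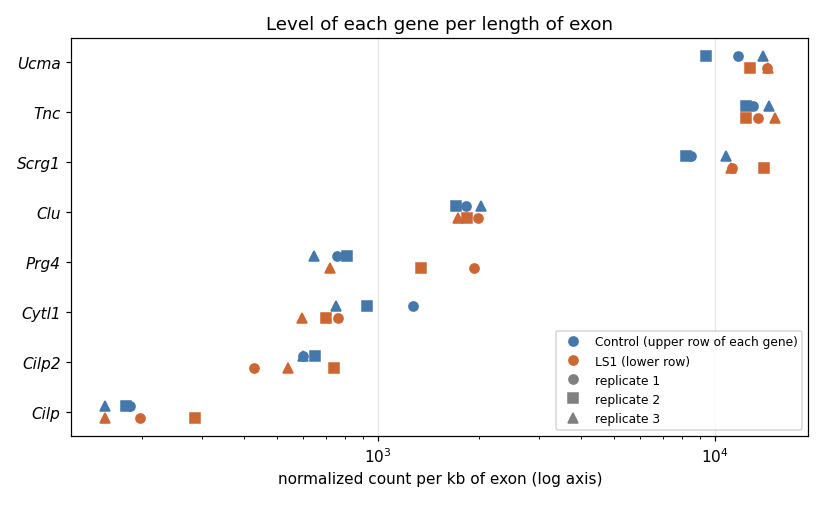
Normalized count per kb of exon (horizontal log axis) of each gene in the 3 Control libraries (blue, upper row) and the 3 LS1 libraries (orange, lower row). *Ucma*, *Tnc* and *Scrg1* lay between 8216 and 15059 in all libraries, and *Cilp* lay lowest, between 155 and 287.

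RefSeq promoter windows on GRCm38.p6, of 250 bases before and 50 after the start of the transcript, were held for 5 of the 8 genes (*Ucma*, *Tnc*, *Cytl1*, *Cilp2* and *Cilp*). On both strands, ACAAT, a SOX core motif, was found in the windows of *Tnc* and *Cilp2*, and 31.0% of all 32851 windows hold it. In the *Cilp2* window, all 250 bases before the start lie in annotated exons. TATAAA was found in *Tnc* and is held by 13.6% of all windows. ACAAAG (18.7% of all windows), TGACG (20.8%) and TGACGTCA, which contains it (1.79%), were found in none of the 5 genes. A match is a description of the letters only. The bases before the start of *Tnc* and *Ucma*, both at percentile 99.0 per kb, are shown because one holds such matches and the other none. The capitals mark ACAAT or its reverse complement and TATAAA, which overlap in the second run of capitals in *Tnc*. The windows lie at chr4:64047016-64047265, minus strand, and at chr2:4975872-4976121, plus strand, outside annotated exons.

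Tnc: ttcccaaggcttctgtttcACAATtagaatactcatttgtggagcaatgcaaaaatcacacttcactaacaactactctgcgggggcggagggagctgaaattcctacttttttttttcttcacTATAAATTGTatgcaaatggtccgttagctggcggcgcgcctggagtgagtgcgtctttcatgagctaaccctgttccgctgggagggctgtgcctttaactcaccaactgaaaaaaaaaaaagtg
Ucma: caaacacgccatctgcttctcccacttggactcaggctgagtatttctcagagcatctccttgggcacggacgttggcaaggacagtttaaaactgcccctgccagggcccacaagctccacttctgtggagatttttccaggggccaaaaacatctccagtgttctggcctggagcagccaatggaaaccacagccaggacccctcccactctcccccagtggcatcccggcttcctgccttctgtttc

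The 8 genes were also set against other cartilage transcripts, since the tissue is a mixture. The mean log2(value + 1) of the 17 core cartilage genes was 15.36 ± 0.083 (SD, n = 3) for Control, against 15.74 ± 0.11 (SD, n = 3) for LS1. It was higher in 3 of 3 LS1 libraries than in each Control library, by 0.38 (exact two-sided permutation p = 0.1). With limma 0 of these 17 genes were called, 9 had an unadjusted p under 0.05, all higher in LS1, and DESeq2 called 6. Among all genes 7.08% were higher by that unadjusted limit, and DESeq2 called 2.36%. *Col9a1*, *Matn1* and *Hapln1* had log2 fold changes of 0.72, 0.64 and 0.94 (limma adjusted p = 0.125, 0.142 and 0.159). Without LS1 replicate 3 limma called 5 of the 17 genes, all higher, where it called 1.17% of all genes higher. *Hapln1* and *Epyc*, among others of this list, were picked by the study from these libraries, so the list is not independent of them.

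Because this reference was itself 0.38 higher in LS1, a gene with equal normalized counts in both groups stands 0.38 lower relative to it. Of all genes tested, 38.8% were lower in all LS1 than in all Control libraries on this scale, and 1.24% were higher. Among the 8 genes *Cytl1*, *Cilp2* and *Clu* were lower in this way and 0 were higher, a share near that of all genes. The differences on the log2 scale were -0.87 for *Cytl1*, -0.53 for *Cilp2* and -0.38 for *Clu*, each with an exact two-sided permutation p of 0.1, the smallest possible, and 0.267 adjusted over the 8 genes. The value of *Clu* is that of the reference, since its own log2 fold change was -0.0015. *Cytl1* stood at -4.98, -5.51 and -5.64 in Control and at -6.15, -6.27 and -6.32 in LS1. *Tnc* differed by -0.34 (exact permutation p = 0.2) and *Prg4* by 0.37 (p = 0.4), and the groups of both overlapped. The difference of *Prg4* was 0.070 without LS1 replicate 1 and 0.69 without LS1 replicate 3, and that of *Cilp2* was -0.31 without LS1 replicate 1. *Ucma*, *Cilp* and *Scrg1* differed by -0.13, -0.12 and 0.023, all with overlapping groups. The difference of *Scrg1* was thus near 0 on this scale, where its normalized counts did not overlap. With *Col2a1* alone as reference, the differences of *Cytl1*, *Cilp2* and *Clu* were -0.73, -0.39 and -0.24 (exact permutation p = 0.2, 0.1 and 0.3).

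**Figure D4:**
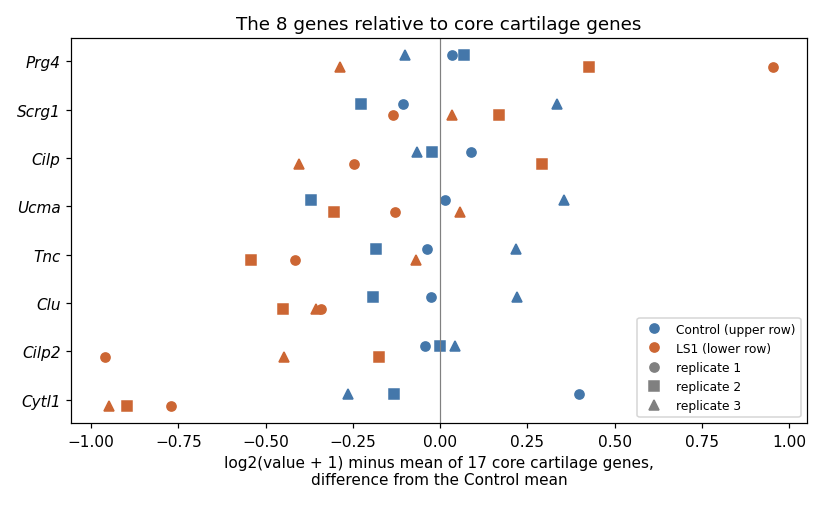
Log2(value + 1) of each gene minus the mean of the 17 core cartilage genes in the same library, shown as the difference from the Control mean (horizontal axis), for Control (blue, upper row) and LS1 (orange, lower row) libraries. *Cytl1*, *Cilp2* and *Clu* lay lower in all 3 LS1 libraries than in all Control libraries, with mean differences of -0.87, -0.53 and -0.38, as did 38.8% of all genes tested on this scale, where the reference itself was 0.38 higher in LS1.

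Genes that share a site or a pathway with the 8 were read from lists fixed by name. These lists were chosen with earlier results of these data known, and the genes named are mostly those with the smallest p. Among all genes tested, 7.08% were higher and 5.86% lower in LS1 at an unadjusted p under 0.05 from limma, and DESeq2 called 2.36%. Of 9 other articular and joint surface genes limma called 0, with 2 at an unadjusted p under 0.05 (*Efemp1* and *Thbs4*, both higher), and DESeq2 called 1. *Efemp1*, which codes for the matrix protein fibulin-3 and was picked by the study, had a log2 fold change of 1.05 (SE 0.29, limma adjusted p = 0.236). Those of *Thbs4*, a matrix thrombospondin, and *Foxo3*, a transcription factor, were 0.64 and -0.32 (limma adjusted p = 0.326 and 0.398). The median of this list lay 0.41 and 0.43 above the Control mean in LS1 replicates 1 and 2, and 0.013 above it in LS1 replicate 3. LS1 replicate 3 was also the lowest of the LS1 libraries for *Prg4*.

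Of 8 other resting zone genes limma called 0, with 5 at an unadjusted p under 0.05, all higher in LS1, and DESeq2 called 1. *Sfrp1*, a secreted Wnt antagonist picked by the study from these libraries, had a log2 fold change of 0.83 (SE 0.16, limma adjusted p = 0.120). *Spon1* (F-spondin) and *Pthlh* (the signal PTHrP) had log2 fold changes of 0.59 and 0.76 (limma adjusted p = 0.248 and 0.317). The median of the list was 0.42, beside 0.25 for *Ucma*, -0.49 for *Cytl1* and 0.40 for *Scrg1*.

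For lubricin, 6 genes of hyaluronan synthesis and of receptors of hyaluronan or lubricin were read, and limma called 0, with 4 at an unadjusted p under 0.05, all higher, and DESeq2 called 2. *Tlr2* and *Tlr4*, innate immune receptors, had log2 fold changes of 0.89 and 0.68, and *Has2*, a hyaluronan synthase, of 0.58 (limma adjusted p = 0.153, 0.177 and 0.234). Their median lay above the Control mean in each LS1 library, by 0.82, 0.47 and 0.48, also where *Prg4* did not differ.

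For UCMA, 10 genes of vitamin K carboxylation and of Gla proteins were read. Limma called 0 of them, with 2 higher and 2 lower at an unadjusted p under 0.05, and DESeq2 called 2, both lower. *Bglap3*, an osteocalcin-related gene picked by the study, had a log2 fold change of -1.27 (limma adjusted p = 0.258), and its counts are uncertain because *Bglap* and *Bglap2* are nearly the same sequence. *Pros1* (protein S) and *Calu* (calumenin) had log2 fold changes of 0.38 and 0.36 (limma adjusted p = 0.293 for both).

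For tenascin-C, 11 of 12 family and receptor genes passed the filter, and limma, edgeR and DESeq2 called 0, with 1 at an unadjusted p under 0.05 from limma. This was *Itga8*, the integrin α8 chain, at 0.59 (limma adjusted p = 0.310). *Itgb1* and *Fn1* (fibronectin) had 0.25 and 0.26 (limma adjusted p = 0.443 and 0.448). For clusterin, 6 of 7 genes of receptors and of chaperones, inside or outside the cell, passed the filter. Limma called 0 of them with 4 higher at an unadjusted p under 0.05, and DESeq2 called 1. *A2m* (α2-macroglobulin) had a log2 fold change of 0.85, and *Hspa5* and *Hsp90b1*, chaperones of the endoplasmic reticulum, both had 0.48 (limma adjusted p = 0.137, 0.279 and 0.310). *Clu* itself was at -0.0015.

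For CILP and CYTL1, 6 genes of growth factors and of a proposed receptor were read, and limma, edgeR and DESeq2 called 0, with 2 higher at an unadjusted p under 0.05 from limma. *Tgfb2* had a log2 fold change of 0.52 and *Ccr2*, the proposed CYTL1 receptor and a monocyte gene, of 1.27 (limma adjusted p = 0.301 and 0.370), while *Igf1* had 0.22 (limma adjusted p = 0.676). *Tgfb1*, the gene of the TGF-β1 that CILP binds, had 0.031 (limma adjusted p = 0.951). Of 11 hypertrophic chondrocyte genes, limma called 0 with 4 higher at an unadjusted p under 0.05, and DESeq2 called 2. *Col10a1*, *Runx2* and *Panx3* had log2 fold changes of 0.61, 0.59 and 0.47 (limma adjusted p = 0.158, 0.185 and 0.261), and the study picked *Col10a1* and *Runx2* from these libraries. The median of these 11 genes was 0.34, with 9 above 0 and 2 below, and it was 0.19 without LS1 replicate 3.

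Markers of other tissues in the sample had differences of their own, and their part in the values of the 8 genes was not tested. Synovial, tendon and fibrous tissue markers (8 of 8 tested, 2 higher at an unadjusted p under 0.05, 0 called by limma, 1 by DESeq2) summed to 165671 to 198963 normalized counts in Control and 220734 to 232862 in LS1. *Col3a1* made up most of these sums, with means of 138331 in Control and 178022 in LS1. The sums therefore say little about synovium. *Prg4* is also made in synovium and *Tnc* in tendon. The median of this list lay above the Control mean in all LS1 libraries, by 0.42, 0.38 and 0.29. The list mixes synovial, tendon and fibrous genes, so its median does not stand for synovium alone. A synovial part in the *Prg4* values was not tested. Macrophage markers (9 tested, 2 higher at an unadjusted p under 0.05) summed to 36190.2 to 51926 in Control and 49006 to 68240.3 in LS1. Limma called 0 of them and DESeq2 called 1. Without LS1 replicate 3 limma called 3 higher, where 226 of all genes were called higher. Osteoblast and osteocyte markers (7 tested, 0 at an unadjusted p under 0.05) had a median log2 fold change of -0.043.

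Marrow markers had medians below 0. At an unadjusted p under 0.05 LS1 was lower for 4 of 8 megakaryocyte, 2 of 7 erythroid and 5 of 8 B cell markers, with medians of -0.60, -0.52 and -0.44. Limma and edgeR called 0 of these genes and DESeq2 called 1. Without LS1 replicate 3 limma called 3 B cell, 1 erythroid and 0 megakaryocyte markers lower, where 98 of all genes were called lower. Their medians were lowest in LS1 replicate 1 for megakaryocyte (-1.13) and erythroid (-1.02) markers, the library with the most *Prg4*, and in LS1 replicate 2 for B cell markers (-0.94). Of 10 interferon-stimulated genes tested, limma, edgeR and DESeq2 called 0, with 0 at an unadjusted p under 0.05 from limma and 9 from edgeR. They summed to 11440.0 to 19400 in Control and 14464 to 57016 in LS1. *Rsad2* made up most of the Control sums, with means of 9394 in Control and 13726 in LS1, so the sums say little about the other genes. Limma called 5 of the 10 genes without LS1 replicate 3. Skeletal muscle markers had a median of -0.72 (8 tested, 1 lower at an unadjusted p under 0.05), endothelial markers of 0.093 (5 tested, 1 higher) and Schwann cell markers of -0.058 (4 tested, 0). No list had a gene at or under 3 reads in all libraries.

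**Figure D5:**
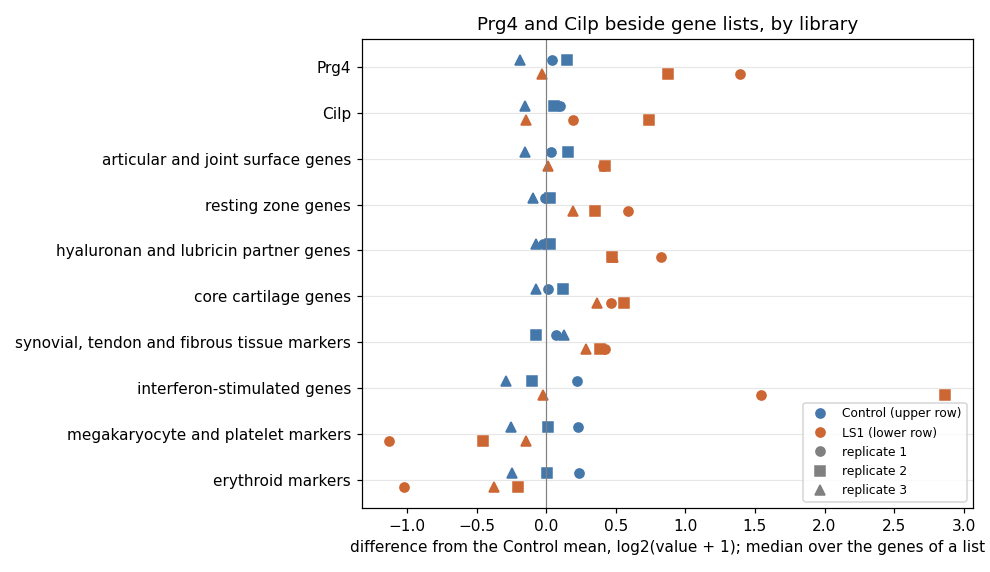
*Prg4*, *Cilp* and the median of 8 gene lists in each library, as the difference from the Control mean on log2(value + 1) (horizontal axis), for Control (blue, upper row) and LS1 (orange, lower row) with marker shapes for replicates. For *Prg4* LS1 replicate 3 lay at -0.030, as did the interferon-stimulated genes at -0.022, while the medians of core cartilage genes and of hyaluronan and lubricin partner genes were above Control in all LS1 libraries.

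The genes whose values followed each of the 8 most closely over the 6 libraries were found among 13262 genes with a mean of at least 200 normalized counts. The 6 points share their groups and depths, and each gene is the closest of many, so the correlations are descriptions. *Prg4* was closest to *Tiparp* and *Gars* (Pearson r of 0.993 for both) and *Cilp* to *Adar* and *Tmem140* (0.994 and 0.989). *Cilp2* was closest to *Usp19* and *Rpia* (0.998 and 0.995), *Ucma* to *Ctsh* and *Il13ra2* (0.995 and 0.989), and *Cytl1* to *Slc30a9* and *Acadl* (0.992 and 0.987). *Scrg1* was closest to *Ptpre* and *Slco3a1* (0.997 and 0.981), *Tnc* to *Prdx4* and *Glrx3* (0.990 and 0.987), and *Clu* to *Ski* and *Dnajc2* (0.991 and 0.980). None of the 8 genes was among the genes nearest to another of them.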

How the data were processed

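Polyadenylated RNA of 6 libraries was sequenced as paired-end reads of 35 to 50 bases. Per the methods and the submitters' processing notes, the authors used HISAT2 2.0.2 on GRCm38, featureCounts 1.4.6 for counts per gene, and DESeq2. The deposited values are a normalized signal, in which each library's counts were divided by its size factor and no gene was filtered out. Dividing by the value of 1 read gave whole reads for 100% of values (tolerance 0.01). For Control replicate 1 this step was near 1 (1.009), so edgeR was also run without it. Size factors recomputed from the recovered reads matched those from the steps in each library.

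A minimum mean of 20 recovered reads was required. The limma 3.58.1 fit (R 4.3.3) used log2(value + 1), a mean-variance trend, robust moderation and Benjamini-Hochberg adjustment. On this scale fold changes of low genes are understated. Alternatives on recovered reads were edgeR 4.0.16 and DESeq2 1.42.0, and others are given in the closing section. The scripts were tested on simulated data. Names and coordinates came from GENCODE M21 (GRCm38), where 98.9% of identifiers had a symbol. Besides the 8 genes, the text names up to 3 genes with the smallest p from each pathway list. It also names *Tgfb1*, *Col3a1*, *Rsad2* and the 2 genes nearest in pattern to each of the 8. Genes named as picked by the study are those of its qPCR panel. The 8 genes and all lists were chosen with earlier results of these data known. The smallest library held 68803249 reads, and 3 mice per group limit the precision.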

Additional observations from a re-analysis of the deposited data

How the results depend on the processing

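Over 18 alternatives on the gene tests, 0 of the 8 genes were called, except without LS1 replicate 3, where *Prg4* was (range over single libraries left out, 0 to 1). The signs of *Prg4*, *Scrg1*, *Cilp*, *Ucma* and *Cytl1* held throughout. Leaving out each library in turn gave log2 fold changes of -0.36 to 0.040 for *Cilp2*, -0.058 to 0.065 for *Clu* and -0.036 to 0.11 for *Tnc*, which change sign. Genes called among all tested, 14 by limma, were 7 by edgeR, 5 by edgeR without Control replicate 1 (chosen after the data were seen), 456 by DESeq2, 45 with no filter on low values, 9 with a mean of at least 100 reads, 7 without robust moderation and 5 to 324 when a library was left out. The cause was not tested. Genes of the 8 with groups that do not overlap numbered 1 to 3 when a library was left out, where 26.6% to 34.6% of all genes tested did not overlap. Relative to the core cartilage genes, the sign changed for *Ucma* (-0.31 to 0.052), *Scrg1* (-0.091 to 0.19) and *Cilp* (-0.32 to 0.022) when a library was left out, and with *Col2a1* as reference for *Ucma* (0.016) and *Cilp* (0.023).

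The labels give both groups the letters A, B and C. The deviations of same-letter libraries from their group means had correlations of 0.054, 0.021 and 0.22 for A, B and C. Pairs with different letters had -0.15 to 0.12, so only the C pair lay above all of them. The labels do not say what the letters stand for, so whether these libraries share more than a letter cannot be told. A replicate block by that letter called 12 genes and 0 of the 8. With the block, 3377 genes had an unadjusted p under 0.05 from limma, against 2499 without it. *Prg4*, *Cytl1*, *Scrg1* and *Ucma* were among them, with unadjusted p of 0.0153, 0.0159, 0.0214 and 0.0492. Their adjusted p from this limma fit ran from 0.189 to 0.284.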
